A study of Mus musculus with 2 samples.

Results

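Astrocytes that respond to injury or disease are called reactive astrocytes, and 8 genes linked to them are described here: *Gfap*, *Vim*, *Serpina3n*, *Lcn2*, *S100b*, *Cxcl5*, *Cd44* and *Aqp4*. The genes were chosen by symbol, with earlier results of these data known, and all 8 were found among the 32285 genes counted. The counts are from nuclei of the hippocampus of male mice aged 9 months, sequenced one by one for their RNA (snRNA-seq). PS19 mice carry a transgene for mutant human tau, driven by the promoter of the mouse prion protein gene, and PZKO mice carry the same transgene and lack the nucleic acid sensor *Zbp1* (Zbp1-KO). Each genotype is represented by 1 library of pooled hippocampi from 5 mice, both groups carry the tau transgene, and no mice without it are included here. The protocol also says that tissue of each animal was handled separately, but no count can be traced to a mouse. Since each genotype has a single library, genotypes could not be compared against replicate error and no test between them was made. Every interval below covers counting error only.

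The PS19 library held 11469 nuclei with 116488513 unique molecular identifiers (UMIs, 1 for each captured RNA molecule), and the PZKO library held 10920 nuclei with 171167884 UMIs. Of these, 9590 and 9307 nuclei passed the filters and were clustered, and 47 cell barcodes occurred in both libraries, 2 of them in astrocytes. The 8 genes took no part in clustering or in the naming of clusters. The astrocyte class held 1081 nuclei in PS19 and 1166 in PZKO, at median depths of 6894 and 8961 UMIs. All 11 astrocyte markers used to name it were detected in both libraries, at a summed level of 20166 CPM in PS19 and 22795 CPM in PZKO, where CPM are the UMIs of a gene in every 1000000 UMIs of the class. *Zbp1* itself was counted 13 times in PS19 astrocytes and 2 times in PZKO astrocytes. In microglia, the class with its highest level, it was not at 0 in PZKO, with 47 UMIs (14.4 CPM, 10.6 to 19.2) in PS19 and 20 UMIs (5.97 CPM, 3.65 to 9.22) in PZKO, and in excitatory neurons it had 2 and 4 UMIs. Mitochondrial UMIs made up 0.85% of the astrocyte UMIs in PS19 and 0.555% in PZKO.

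Glial fibrillary acidic protein and vimentin are the intermediate filaments of the astrocyte cytoskeleton, which thicken when astrocytes become reactive. Reactive astrocytes also secrete acute-phase proteins and chemokines, among them the protease inhibitor encoded by *Serpina3n*, the iron-siderophore carrier lipocalin-2 and the neutrophil attractant *Cxcl5*. They carry the hyaluronan receptor CD44 at their surface, they release the calcium-binding protein S100B, and aquaporin-4, the water channel of their endfeet on blood vessels, can change its place and amount. The transcription factor STAT3, which acts downstream of cytokines of the interleukin-6 family, is known for its part in the induction of *Gfap*, *Vim*, *Serpina3n* and *Lcn2*.

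Because STAT factors bind a short palindrome, the promoters of the 8 genes were searched for it, together with the motifs of AP-1 and NF-kB, which are further factors of injury and inflammation. RefSeq promoter windows on GRCm38.p6, from 250 bases before to 50 bases after the start site, were at hand for 6 of the 8 genes. On both strands, TTCNNNGAA (STAT) occurred in 8.30% of all 32851 promoters, TGANTCA (AP-1) in 7.81% and GGANTTTCC (NF-kB) in 1.25%. Among the 6 genes, 1 match was found, a STAT motif in *Gfap* that runs from position -2 to position 7 of the start site, where base 1 is the first transcribed base. The 110 bases around the start sites of *Gfap*, *Vim* and *Serpina3n* are printed in capitals where a motif matched and in lower case elsewhere, since *Gfap* holds the match and the other 2 are the genes with a promoter window that were called lower in the results that follow. The windows are chr11:102897191-102897300 on the minus strand for *Gfap*, chr2:13574211-13574320 on the plus strand for *Vim* and chr12:104406608-104406717 on the plus strand for *Serpina3n*.
Gfap: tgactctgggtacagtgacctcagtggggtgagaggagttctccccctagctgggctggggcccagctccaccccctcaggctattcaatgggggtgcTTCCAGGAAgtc
Vim: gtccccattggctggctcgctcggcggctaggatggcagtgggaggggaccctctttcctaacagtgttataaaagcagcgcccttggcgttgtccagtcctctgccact
Serpina3n: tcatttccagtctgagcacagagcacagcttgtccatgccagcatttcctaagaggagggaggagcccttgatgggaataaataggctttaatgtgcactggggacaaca
A match is only a string of letters, and these windows say nothing of sites farther away.

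In astrocytes all 8 genes had lower levels in the PZKO library, by different amounts, except that *Cd44* turned to a log2 ratio of 0.02 with edgeR TMM scaling and with DESeq2 size factors. *Vim*, *Serpina3n*, *Cxcl5* and *Lcn2* were lower by more than 1 on the log2 scale, *Gfap*, *S100b* and *Aqp4* by less than 0.5, and for *Cd44* the interval of the ratio included 0. A gene with at least 100 UMIs in a class over both libraries was called lower in PZKO at a log2 ratio of -0.5 or less and higher at 0.5 or more. Of the 11833 genes that reached 100 UMIs in astrocytes, 8.89% were called lower and 2.05% higher, so that 81.3% of all calls were lower. With TMM scaling this split was 53.7% and with DESeq2 size factors 54.5%, and the median of all genes moved from -0.06 to 0.06 with both. Of the 8 genes, 7 reached 100 UMIs, 3 of these were called lower (*Vim*, *Serpina3n* and *Cxcl5*) and 0 were called higher. Their median log2 ratio was -0.49, against -0.06 over all genes tested, and the lowest 5% of all genes lay below -0.63. Because the 8 genes were chosen with earlier results of these data known, their place among all genes is a description only.

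Of the filament genes, *Gfap* (chromosome 11, 102887336 to 102900912) had 9283 UMIs in PS19 astrocytes, or 1147 CPM (95% Poisson interval 1124 to 1171), and 9099 UMIs in PZKO astrocytes, or 821 CPM (804 to 838). The log2 ratio of PZKO over PS19 was -0.48, with an exact 95% interval (Clopper-Pearson) of -0.52 to -0.44. *Vim* (chromosome 2, 13573927 to 13582826) had 1860 UMIs in PS19 (229.9 CPM, interval 219.6 to 240.6) and 1023 UMIs in PZKO (92.3 CPM, 86.7 to 98.1). The PZKO level of *Vim* was thus 0.401 times that of PS19, a log2 ratio of -1.32 (-1.43 to -1.21), and the intervals of the levels did not overlap for either filament gene.

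Of the secreted acute-phase proteins, *Serpina3n* (chromosome 12, 104406729 to 104414329) was at 116 CPM in PS19 from 938 UMIs and at 55.5 CPM in PZKO from 615 UMIs. Its log2 ratio was -1.06 (-1.21 to -0.91). *Lcn2* (chromosome 2, 32384633 to 32388252) was sparse, with 62 UMIs in PS19 (7.66 CPM, 5.88 to 9.82) and 12 UMIs in PZKO (1.08 CPM, 0.559 to 1.89). It had the lowest ratio of the 8 genes, -2.82, but also the widest interval (-3.85 to -1.92), and with 74 UMIs it stayed below the minimum for a call.

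The chemokine gene *Cxcl5* (chromosome 5, 90759360 to 90761624) was at 94.8 CPM in PS19 (88.2 to 101.8) and at 37.6 CPM in PZKO (34.1 to 41.4), from 767 and 417 UMIs. Its log2 ratio of -1.33 (-1.51 to -1.16) was close to that of *Vim*. *S100b* (chromosome 10, 76253853 to 76261159) was at 108 CPM (101 to 115.4) and 77.1 CPM (72.1 to 82.5), with a log2 ratio of -0.49 (-0.62 to -0.35). *Cxcl5* therefore passed the threshold of a call and *S100b* came just short of it.

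The membrane proteins differed least between the libraries. *Cd44* (chromosome 2, 102811141 to 102901665) had 1281 UMIs in PS19 (158 CPM, 149.8 to 167.3) and 1639 UMIs in PZKO (147.9 CPM, 140.8 to 155.2), a log2 ratio of -0.10 whose interval (-0.21 to 0.01) included 0. *Aqp4* (chromosome 18, 15389496 to 15410982) had 5662 UMIs in PS19 (699.9 CPM, 681.8 to 718.4) and 6390 UMIs in PZKO (576.5 CPM, 562.5 to 590.9), a log2 ratio of -0.28 (-0.33 to -0.23). Positions are those of GENCODE M21 on mm10. *Gfap*, *S100b*, *Cd44* and *Aqp4* overlap a gene on the other strand (*Gm26668*, *Dip2a*, *Gm23731* and *AC133525.2*), and none of the 8 overlaps a gene on its own strand.

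**Figure D1:**
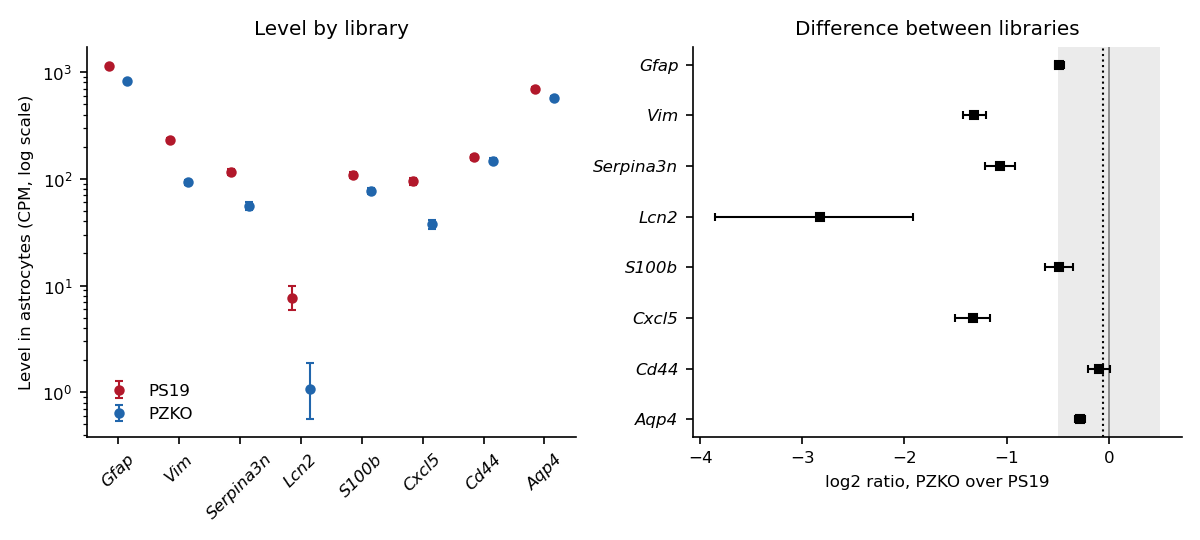
Level of the 8 genes in astrocytes of the PS19 and PZKO libraries (left, CPM on a log scale, bars are 95% Poisson intervals) and log2 ratio of PZKO over PS19 (right, bars are exact 95% intervals, grey marks -0.5 to 0.5, the dotted line is the median of all 11833 genes). All 8 points on the left are lower in PZKO (*Cd44* is not under other scalings), and *Vim*, *Serpina3n*, *Lcn2* and *Cxcl5* lie beyond -0.5 on the right.

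The ratios in astrocytes moved with gene length. When the 11826 genes tested that have an annotated length were sorted into 10 length groups of equal size, the median log2 ratio was -0.40 in the shortest group (median length 3468 bases) and 0.16 in the longest (266331 bases), and it was higher in each group than in the one before. In the shortest group 37.7% of genes were called lower, in the longest 1.61%. *Lcn2* and *Cxcl5* are in length group 1, *Vim*, *Serpina3n* and *S100b* in group 2, *Gfap* in group 3, *Aqp4* in group 5 and *Cd44* in group 9. Relative to the median of its own group, *Vim* was at -1.07, *Cxcl5* at -0.93, *Serpina3n* at -0.82 and *Lcn2* at -2.42, and at most 1.01% of the genes of the group had a lower ratio than any of these. *Gfap* was at -0.31 relative to genes of its length, *S100b* at -0.24, *Aqp4* at -0.18 and *Cd44* at -0.18, and between 11.8% and 19.5% of the genes of their groups lay below them. This comparison was added after the data had been seen.

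**Figure D2:**
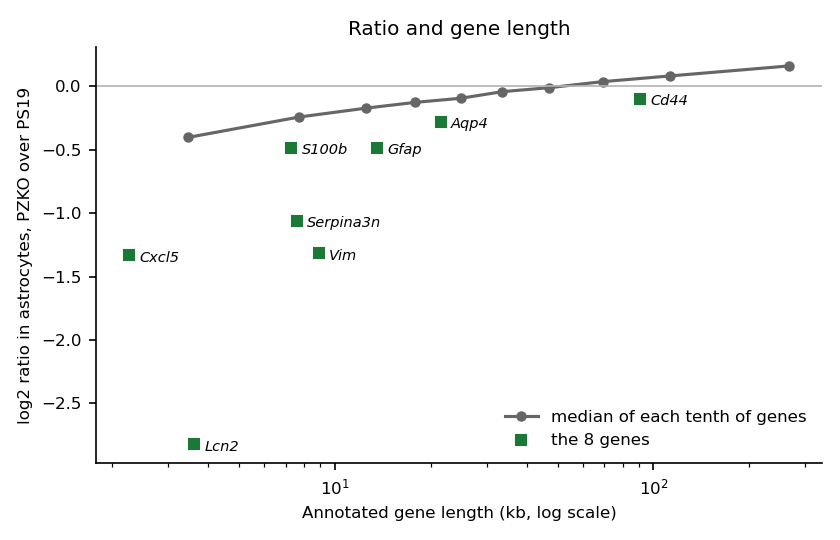
Log2 ratio of PZKO over PS19 in astrocytes against annotated gene length (kilobases, log scale). The line joins the medians of 10 groups of genes of increasing length, from -0.40 to 0.16, and the squares are the 8 genes, all of which lie below it.

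RNA from other cells was present in the astrocytes of both libraries. The markers of other classes stood in astrocytes, by their median, at 13.8% of their level in the whole PS19 library and at 16.4% in PZKO, which serves as an estimate of free RNA. The summed level of 8 choroid plexus markers was 425.8 CPM in PS19 and 62.3 CPM in PZKO, with all 8 lower in PZKO, that of 8 oligodendrocyte markers was 658 and 509 CPM (6 of 8 lower), and that of 9 microglial markers was 92.0 and 74.2 CPM (7 of 9 lower). Endothelial markers stood at 24.2 and 18.6 CPM (6 of 7 lower), ependymal markers at 20.5 and 16.1 CPM (3 of 6 lower), inhibitory neuron markers at 40.5 and 27.7 CPM (4 of 5 lower), excitatory neuron markers at 224 and 208 CPM (4 of 7 lower) and macrophage markers at 5.44 and 3.88 CPM (5 of 6 lower). Markers of OPC (94.4 and 111 CPM), mural cells (234 and 255 CPM), VLMC (89.5 and 108 CPM), Cajal-Retzius cells (33.5 and 42.9 CPM) and T cells (2.23 and 2.89 CPM) had higher summed levels in PZKO. In both libraries the macrophage marker *Cbr2* was at 0. *Cd3e* and *Cd3g* were at 0 in PS19, and *Cd3e*, *Cd3d*, *Cd8a*, *Lhx1* and *Lhx5* in PZKO. With the estimated free RNA subtracted, the log2 ratios were -0.45 for *Gfap*, -1.30 for *Vim*, -1.03 for *Serpina3n*, -2.85 for *Lcn2*, -0.46 for *S100b*, -1.31 for *Cxcl5*, -0.07 for *Cd44* and -0.25 for *Aqp4*. With nuclei of at least 1000 UMIs, 500 genes and at most 1% mitochondrial UMIs, they were -0.41, -1.12, -0.88, -2.14, -0.48, -0.96, -0.09 and -0.18 in the same order. All 8 thus stayed below 0 in both settings. Under the stricter filter all 8 were nearer to 0 than with the filter used elsewhere, *S100b* and *Cd44* only slightly.

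The share of astrocytes in which a gene was detected depends on depth, so each nucleus was thinned to 2000 UMIs, which left out 4 PS19 and 3 PZKO astrocytes. At this depth *Gfap* was detected in 70.7% of PS19 astrocytes (exact 95% interval 67.8% to 73.4%) and 58.2% of PZKO astrocytes (55.3% to 61.1%). *Aqp4*, the other gene found in most astrocytes, was detected in 61.2% (58.2% to 64.1%) and 53.1% (50.2% to 56.0%). The share of *Gfap*-positive nuclei was lower in PZKO beyond its intervals, as was that of *Aqp4*.

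*Vim* was detected in 26.8% of PS19 astrocytes (24.2% to 29.6%) and 11.7% of PZKO astrocytes (9.90% to 13.7%). *Serpina3n* was detected in 16.9% (14.7% to 19.3%) and 8.43% (6.89% to 10.2%), and *Cxcl5* in 10.03% (8.30% to 11.98%) and 4.73% (3.58% to 6.11%). These 3 genes again had the widest relative gaps among the genes that are not rare, and their intervals did not overlap between libraries. *S100b* was detected in 17.2% (15.0% to 19.6%) and 11.8% (9.98% to 13.8%), and *Cd44* in 18.1% (15.8% to 20.5%) and 14.3% (12.3% to 16.4%), with overlapping intervals for *Cd44*. *Lcn2* was detected in 1.11% (0.577% to 1.94%) and 0.258% (0.0532% to 0.752%), and its intervals overlap as well.

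Without thinning, the shares were 88.5% and 78.4% for *Gfap*, 52.7% and 34.0% for *Vim*, 37.6% and 24.8% for *Serpina3n*, 3.33% and 1.03% for *Lcn2*, 46.9% and 42.0% for *S100b*, 22.8% and 15.1% for *Cxcl5*, 35.6% and 32.3% for *Cd44*, and 87.4% and 82.9% for *Aqp4*. All 8 were lower in PZKO although its astrocytes were deeper. When at least 2 UMIs at the thinned depth were asked for, *S100b* was found in 1.58% of PS19 and 1.81% of PZKO astrocytes and *Cd44* in 5.48% and 5.50%. Neither share was then lower in PZKO, while the shares of the other 6 stayed lower. No intervals are given for these shares, and the small gaps of *S100b* and *Cd44* are not read as a difference.

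Other classes show the level at which RNA of these genes is found outside astrocytes, and that level differed between classes. At 2000 UMIs per nucleus *Gfap* was detected in 16.3% of PS19 microglia (13.8% to 19.0%) and 13.3% of PZKO microglia (10.8% to 16.0%), where the median depths before thinning were 3313 and 4188 UMIs. In oligodendrocytes (3335 and 4248.5 UMIs) it was detected in 20.8% and 11.97%, and in excitatory neurons, which are deeper (18780 and 28424 UMIs), in 5.35% and 2.99%. The share in neurons was thus the lowest of the 3, and of these classes microglia and oligodendrocytes were the nearer to astrocytes in depth. Among all named classes OPC were nearest (6797 and 10326.5 UMIs), and there *Gfap* was detected in 11.9% of PS19 and 9.68% of PZKO nuclei. Ependymal cells (5270 and 6896 UMIs) were also nearer than microglia and oligodendrocytes, with shares of 18.7% and 15.9%. No single class is therefore read as the background at the depth of astrocytes.

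*Vim* was detected in 10.9% of PS19 and 4.62% of PZKO microglia, *Aqp4* in 6.20% and 8.66%, *S100b* in 4.87% and 5.19%, *Serpina3n* in 3.04% and 2.89%, and *Cxcl5* in 0.73% and 0.433%. *Cd44*, which microglia also express, was detected in 7.79% and 5.63% of them. For these 6 genes and for *Gfap* the astrocyte interval lay above that of microglia in both libraries. For *Serpina3n* it overlapped that of oligodendrocytes in both libraries (14.6% to 17.8% and 5.23% to 7.35%). *Lcn2* was detected in 0.243% of PS19 microglia (0.0295% to 0.876%) and 0.78% of PS19 oligodendrocytes (0.455% to 1.25%), and in 0.289% and 0.144% of those of PZKO. The intervals of these *Lcn2* shares overlapped those of astrocytes in both libraries, but the astrocyte shares rest on 12 and 3 nuclei. By level, *Lcn2* in PS19 astrocytes (7.66 CPM, 5.88 to 9.82) lay above PS19 oligodendrocytes (3.87 CPM, 2.71 to 5.36) and microglia (2.45 CPM, 1.06 to 4.83). In PZKO the intervals of the levels overlapped as well. In unthinned excitatory neurons, *Gfap* was found in 34.6% of PS19 and 28.9% of PZKO nuclei.

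*Gfap*, *Vim* and *Serpina3n* were also lower in PZKO in excitatory neurons, where they were rare. There the log2 ratio of *Gfap* was -0.98 (-1.09 to -0.87), of *Vim* -1.43 (-1.63 to -1.23) and of *Serpina3n* -1.08 (-1.26 to -0.89). The UMIs came to 1399 and 1145 for *Gfap*, 545 and 327 for *Vim* and 559 and 428 for *Serpina3n*, from 2731 PS19 and 2951 PZKO nuclei. Median depths were 18780 and 28424 UMIs. Since CPM divide by depth, an equal count per nucleus would give a lower CPM in the deeper PZKO library. The part of depth in these ratios was not tested. These neurons are not a plain background for all 8 genes, since *Cd44* was higher there in PZKO, as given with the other classes.

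**Figure D3:**
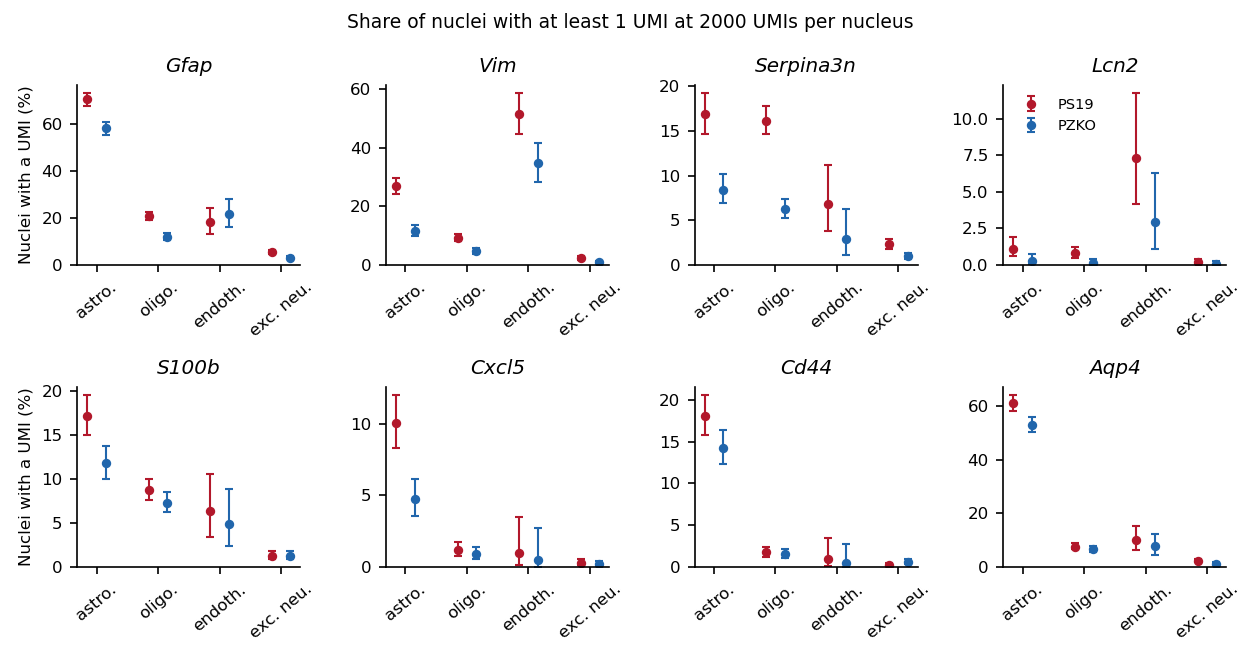
Share of nuclei with at least 1 UMI of each gene after thinning to 2000 UMIs per nucleus, in percent with exact 95% intervals, for astrocytes, oligodendrocytes, endothelial cells and excitatory neurons of PS19 (red) and PZKO (blue). *Gfap* was found in 70.7% and 58.2% of astrocytes and in 5.35% and 2.99% of excitatory neurons, while *Vim* and *Lcn2* were found most often in endothelial cells.

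The astrocytes formed 2 clusters. The leading genes of the first included *Gpc5* and *Slc1a2*, and it held 543 PS19 and 690 PZKO nuclei. The leading genes of the second included *Gfap*, *Aqp4*, *A2m* and *Cd44*, and it held 538 PS19 and 476 PZKO nuclei, although *Gfap*, *Aqp4* and *Cd44* were not among the genes used for clustering. By description, *Cd44* differed most between the clusters, with 29.2 CPM in the first and 263.8 CPM in the second in PS19, and 16.1 and 297.2 CPM in PZKO. *Vim* stood at 78.7 and 353.4 CPM in PS19 and at 28.4 and 164.8 CPM in PZKO. *S100b* differed least, with 104.8 and 110.7 CPM in PS19 and 67.9 and 87.6 CPM in PZKO.

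Within the first cluster, the log2 ratios of PZKO over PS19 lay below 0, at -0.78 (-0.86 to -0.69) for *Gfap*, -1.47 (-1.76 to -1.19) for *Vim*, -1.21 (-1.55 to -0.88) for *Serpina3n*, -1.48 (-1.84 to -1.12) for *Cxcl5*, -0.63 (-0.83 to -0.42) for *S100b*, -0.85 (-1.27 to -0.44) for *Cd44* and -0.63 (-0.73 to -0.53) for *Aqp4*. *Lcn2* was sparse there, at 2.20 CPM in PS19 and 0.17 CPM in PZKO. The share of all genes that were lower was not counted within clusters, so the number of the 8 genes that were lower is not read as a result. In the second cluster the gap between the libraries was narrower. *Vim* was at -1.10 (-1.22 to -0.98), *Serpina3n* at -0.85 (-1.02 to -0.69), *Cxcl5* at -1.13 (-1.33 to -0.93) and *S100b* at -0.34 (-0.52 to -0.15), and *Gfap* was at -0.23 (-0.28 to -0.18). For *Aqp4* the interval (-0.07 to 0.06) included 0, and *Cd44* was higher in PZKO, at 0.17 (0.06 to 0.28). The difference between the clusters was not tested.

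Co-detection asks whether the other genes are found in the same nuclei as *Gfap*. At equal depth, 761 of 1077 PS19 astrocytes and 677 of 1163 PZKO astrocytes had a *Gfap* UMI. The share with a *Vim* UMI was 15.5% (11.7% to 19.98%) in PS19 astrocytes with 0 *Gfap* UMIs, 25.3% (21.01% to 29.9%) in those with 1 or 2 and 38.1% (33.1% to 43.2%) in those with 3 or more. In PZKO the same shares were 6.17% (4.20% to 8.70%), 12.2% (9.22% to 15.7%) and 21.2% (16.4% to 26.7%). *Vim* was thus found more often with more *Gfap* in both libraries, and at each level of *Gfap* it was lower in PZKO, with intervals that did not overlap.

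*Serpina3n* was detected in 7.91%, 16.0% and 25.5% of PS19 astrocytes with 0, 1 or 2, and 3 or more *Gfap* UMIs, and in 3.498%, 7.18% and 19.7% of PZKO astrocytes. *Cd44* was detected in 7.91%, 17.3% and 27.6% in PS19 and in 3.09%, 15.3% and 33.6% in PZKO. The share of *Cd44* among astrocytes rich in *Gfap* had overlapping intervals in the libraries (23.1% to 32.5% in PS19 and 27.9% to 39.7% in PZKO). For *Cxcl5* the shares were 6.33%, 7.47% and 15.8% in PS19 and 2.26%, 5.74% and 7.72% in PZKO. For *Aqp4* they were 49.1%, 63.1% and 69.4% in PS19 and 39.3%, 59.1% and 69.5% in PZKO, nearly the same in the 2 libraries among the nuclei rich in *Gfap*. *S100b* followed *Gfap* least, with 15.8%, 17.8% and 17.7% in PS19 and 9.67%, 12.7% and 14.3% in PZKO.

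As an odds ratio for detection together with *Gfap*, *Cd44* had 3.35 (2.13 to 5.44) in PS19 and 9.001 (5.19 to 16.7) in PZKO, *Serpina3n* 3.02 (1.92 to 4.93) and 3.75 (2.17 to 6.84), *Vim* 2.51 (1.77 to 3.61) and 2.82 (1.83 to 4.47), *Aqp4* 2.04 (1.55 to 2.68) and 2.64 (2.06 to 3.38), and *Cxcl5* 1.93 (1.15 to 3.38) and 2.999 (1.504 to 6.51). The interval lay above 1 in both libraries for these 5 genes. The sizes were less firm, since with doublets not removed *Cd44* had 4.36 in PS19 and 4.84 in PZKO, *Serpina3n* 1.71 in PS19, *Vim* 4.83 in PZKO and *Cxcl5* 4.53 in PZKO, and at 4000 UMIs per nucleus *Cxcl5* had 5.57 in PS19. With doublets not removed the astrocytes numbered 1090 in PS19 and 1160 in PZKO, close to the 1081 and 1166 used elsewhere. Thinning draws UMIs at random, and each setting was thinned by its own draw, which the intervals do not cover. The part of the draw in these moves was not tested. The gap between the libraries in *Cd44* is therefore not read as a difference. The interval of the odds ratio included 1 for *S100b*, with 1.15 (0.796 to 1.67) and 1.43 (0.972 to 2.13), and for *Lcn2* in PS19, with 4.62 (0.666 to 199.5). In PZKO *Lcn2* was found in 3 astrocytes at this depth, and all 3 had 3 or more *Gfap* UMIs.

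Within the astrocyte clusters, co-detection was weaker for most of these genes. Within the cluster led by *Gpc5*, the odds ratio of *Vim* with *Gfap* was 2.12 (1.21 to 3.83) in PS19 and 2.80 (1.40 to 5.80) in PZKO, but within the cluster led by *Gfap* it was 1.20 (0.708 to 2.06) and 0.938 (0.493 to 1.88). *Aqp4* had 1.89 (1.33 to 2.71) and 1.97 (1.43 to 2.73) in the first cluster and 1.25 (0.714 to 2.14) and 1.30 (0.733 to 2.28) in the second. *Cxcl5* had 3.67 (1.44 to 11.1) in the first cluster and 0.692 (0.356 to 1.42) in the second in PS19, and 1.75 (0.549 to 5.75) and 1.66 (0.568 to 6.63) in PZKO. *Serpina3n* had values between 2.03 and 2.52 in both clusters of both libraries, with intervals above 1 in PS19 and including 1 in PZKO. *Cd44* had 5.76 (2.03 to 20.1) and 3.04 (1.48 to 6.86) in the PZKO clusters, and in the PS19 clusters 1.84 (0.743 to 4.97) and 1.72 (0.948 to 3.25), whose intervals include 1. *S100b* had 1.20 (0.759 to 1.92) and 1.45 (0.682 to 3.46) in the PS19 clusters, and 1.36 (0.830 to 2.22) and 3.39 (1.05 to 17.5) in the PZKO clusters. Its interval thus lay above 1 only in the second cluster of PZKO.

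**Figure D4:**
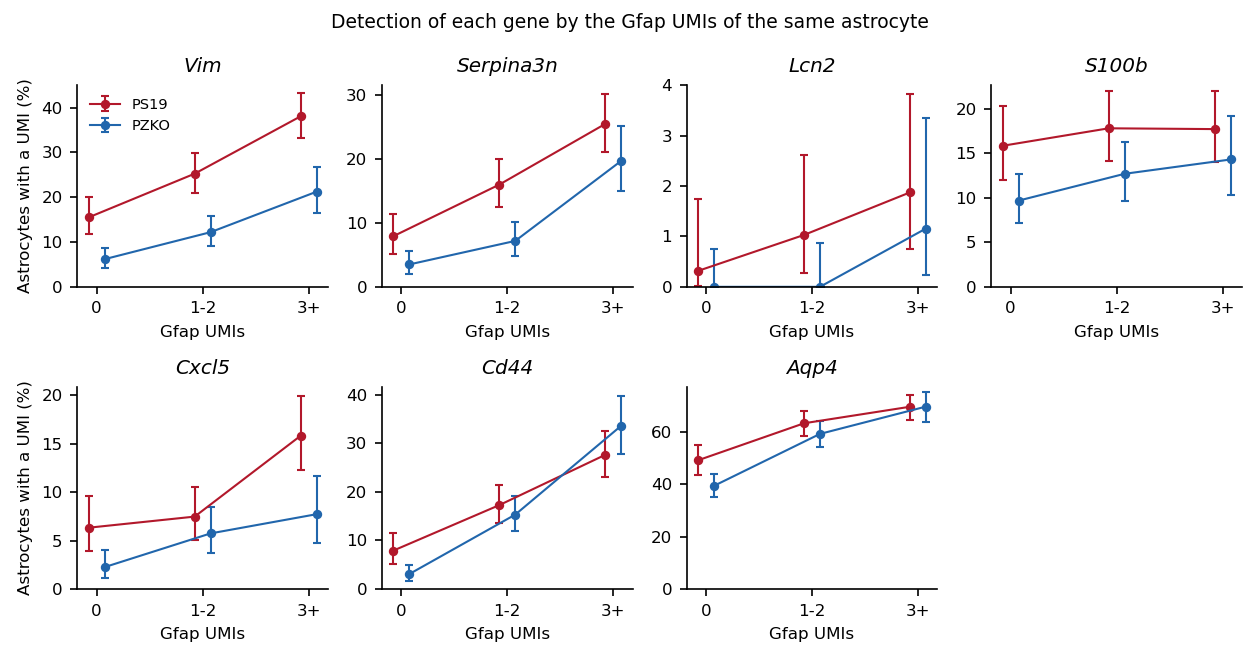
Share of astrocytes with at least 1 UMI of each gene (percent, exact 95% intervals) among nuclei with 0, 1 or 2, and 3 or more *Gfap* UMIs at 2000 UMIs per nucleus, in PS19 (red) and PZKO (blue). The share of *Vim* goes from 15.5% to 38.1% in PS19 and from 6.17% to 21.2% in PZKO, while that of *S100b* stays between 15.8% and 17.8% in PS19.

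Taken over single nuclei, fewer of the 8 genes were detected at once in astrocytes of the PZKO library. At 2000 UMIs, 9.94% of PS19 astrocytes (8.21% to 11.9%) and 20.6% of PZKO astrocytes (18.3% to 23.1%) had none of them. At least 4 of the genes were detected in 18.1% of PS19 and 7.31% of PZKO astrocytes, and 1 PS19 nucleus had 7. The median count of *Gfap* was 2 UMIs in PS19 and 1 UMI in PZKO, and 34.6% and 22.3% of astrocytes had 3 or more. No other set of genes was counted in this way, and the astrocyte clusters were present in different proportions in the libraries.

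Among 4708 genes with enough UMIs, the 10 that differed most between astrocytes with 3 or more and with 0 *Gfap* UMIs, by the smaller of the log2 ratios of the libraries, included *Serpina3n* and *Cd44*. The other 8 were *A2m*, *Tmeff2*, *Adamtsl3*, *Sulf1*, *Aebp1*, *Asap3*, *Cfap54* and *Osmr*. *A2m*, the gene of the protease inhibitor alpha-2-macroglobulin, led them with log2 ratios of 2.80 in PS19 and 2.91 in PZKO. *Osmr*, the receptor of oncostatin M, a cytokine of the interleukin-6 family, had 1.98 in PS19 and 3.22 in PZKO, and *Sulf1*, a sulfatase that trims heparan sulfate, had 2.35 and 2.75. Of the 8 genes, *Vim* ranked 25 (1.56 and 2.25), *Aqp4* ranked 92 (0.92 and 1.48) and *S100b* ranked 1414 (0.05 and 0.75). The genes were picked for these values, so they are a description.

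Among the 11 named classes with at least 50 nuclei per library, 5 of the 8 genes had their highest level in astrocytes in both libraries: *Gfap*, *Serpina3n*, *Cxcl5*, *Cd44* and *Aqp4*. An unnamed cluster of 57 PZKO nuclei with macrophage and T cell markers was higher in *Cd44*, at 243.6 CPM (174.8 to 330.5). Of the named classes, *Vim* and *Lcn2* were highest in endothelial cells, and *S100b* was highest in ependymal cells, the ciliated lining of the ventricles. In *Gfap*, another unnamed cluster, of low depth and described at the end, lay below astrocytes and above all other named classes in both libraries. Of the named classes, astrocytes stood 5.01 times above the next in PS19, VLMC, the fibroblast-like cells of the meninges (228.9 CPM). In PZKO they stood 7.40 times above the next, ependymal cells (110.9 CPM). Below these, the intervals of neighbouring classes overlapped from ependymal cells (142.7 CPM in PS19) through endothelial (121.3 CPM), mural cells (120.8 CPM), oligodendrocytes and microglia, and the neurons were lowest at 12.1 to 23.9 CPM. Of all *Gfap* UMIs in named classes, 71.5% lay in astrocytes in PS19 and 77.3% in PZKO.

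*Vim* was at 554.4 CPM (510.9 to 600.7) in PS19 endothelial cells and 416.9 CPM (382.1 to 453.9) in PZKO endothelial cells, more than 2 times its level in any other named class. The unnamed cluster of low depth, described at the end, lay above astrocytes in *Vim* in both libraries. Of the named classes, astrocytes came next in PS19, with an interval that overlapped that of ependymal cells (212.3 CPM). In PZKO astrocytes ranked 4 of the named classes, after endothelial cells, mural cells (181.1 CPM) and ependymal cells (116.2 CPM). The order of astrocytes among these classes therefore differed between the libraries. *Lcn2* had 69 UMIs in PS19 endothelial cells (63.9 CPM, 49.7 to 80.8) and 19 UMIs in PZKO endothelial cells (15.0 CPM, 9.01 to 23.4), a log2 ratio of -2.09 (-2.91 to -1.34). In PS19, endothelial cells held 29.1% of the *Lcn2* UMIs and stood 8.33 times above astrocytes, while astrocytes held 26.2%. At equal depth *Lcn2* was detected in 7.32% of PS19 (4.15% to 11.8%) and 2.94% of PZKO endothelial nuclei (1.09% to 6.29%), where 108 and 97 nuclei under 2000 UMIs were left out.

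*Serpina3n* was shared by astrocytes and oligodendrocytes, the myelinating cells. In PS19 its level in oligodendrocytes was 104.4 CPM (98.0 to 111.2), with an interval that overlapped that of astrocytes (108.6 to 123.6), and in PZKO it was 34.6 CPM (31.1 to 38.4), below the astrocyte interval (51.2 to 60.1). The log2 ratio in oligodendrocytes was -1.59 (-1.77 to -1.42). Oligodendrocytes formed 4 clusters, present in different proportions in the libraries. The cluster led by *Cdkn1a* and *Bfsp2*, with a median of 2408 UMIs, held 431 of 2578 PS19 and 127 of 2254 PZKO nuclei. Ratios within these clusters are not given here. Oligodendrocytes held 86.8 *Serpina3n* UMIs for every 100 *Gfap* UMIs in PS19 (79.5 to 94.6) and 53.5 in PZKO (46.9 to 60.8), against 10.1 (9.44 to 10.8) and 6.76 (6.22 to 7.33) in astrocytes. In excitatory neurons the same figure was 39.96 in PS19 and 37.4 in PZKO. Most *Gfap* UMIs lay in astrocytes, so a higher figure in another class does not tell from which cells its RNA came.

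*S100b* had overlapping intervals in ependymal cells (123.9 CPM in PS19, 99.2 CPM in PZKO), astrocytes and OPC, the oligodendrocyte precursors (93.5 and 80.4 CPM), in both libraries, and oligodendrocytes followed at 51.0 and 39.7 CPM. *Cxcl5* had 79.2% of its UMIs in PS19 and 77.2% in PZKO in astrocytes. The next class stood 4.598 times lower in PS19 (VLMC, 20.6 CPM from 10 UMIs) and 9.35 times lower in PZKO (mural cells, 4.02 CPM from 2 UMIs). *Cd44* was second in microglia in PS19 (46.3 CPM, 39.2 to 54.3) and in ependymal cells in PZKO (66.6 CPM, 49.6 to 87.5). *Aqp4* had its second level in ependymal cells in both libraries (219.4 and 215.4 CPM), with 80.1% and 81.8% of its UMIs in astrocytes.

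**Figure D5:**
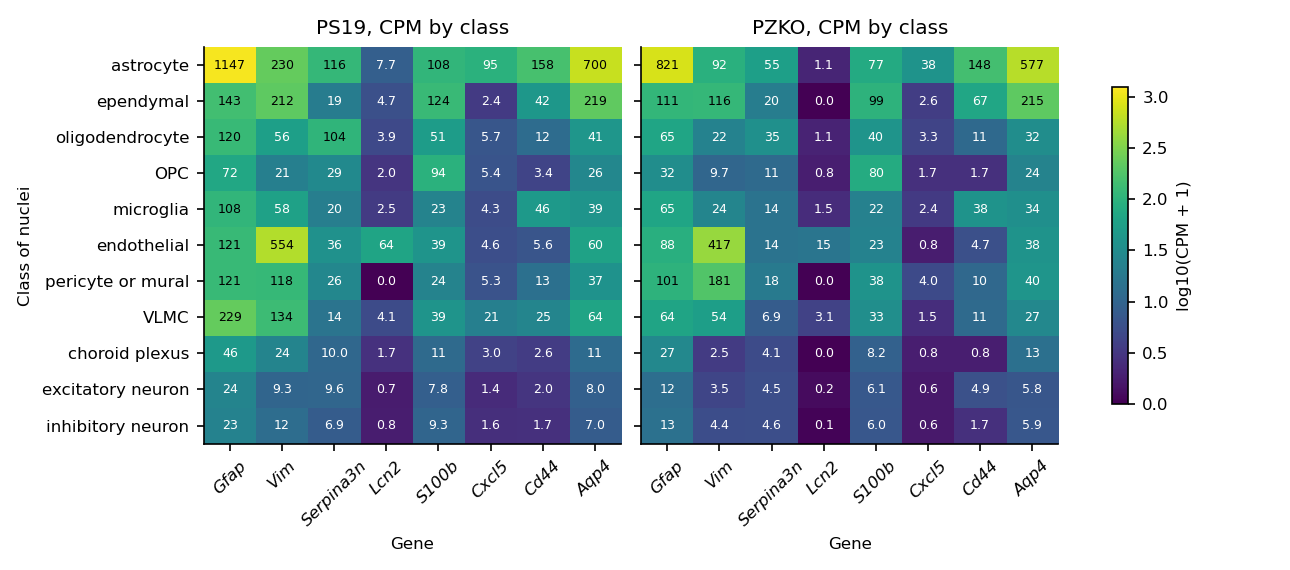
Level of the 8 genes in 11 classes of nuclei in the PS19 library (left) and the PZKO library (right), with the CPM printed in each cell and the colour as log10(CPM + 1). *Gfap* is at 1147 and 821 CPM in astrocytes and at 23.9 and 12.1 CPM in excitatory neurons, *Vim* and *Lcn2* are highest in endothelial cells, and levels are to be read down a column since genes are not scaled by length.

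Outside astrocytes, *Gfap*, *Vim* and *Serpina3n* were lower in PZKO in most classes where they could be called. In oligodendrocytes 3 of 6 genes with at least 100 UMIs were called lower (*Gfap* -0.90, *Vim* -1.32 and *Serpina3n* -1.59), against 7.57% of all genes. In microglia it was 3 of 6 (*Gfap* -0.73, *Vim* -1.24 and *Serpina3n* -0.51), against 6.25% of all genes, and the interval of *Serpina3n* there (-1.08 to 0.06) included 0. In excitatory neurons 4 of 7 were called lower (*Gfap*, *Vim*, *Serpina3n* and *Cxcl5*), against 7.82%, and in inhibitory neurons 4 of 5 (*Gfap* -0.78, *Vim* -1.44, *Serpina3n* -0.58 and *S100b* -0.64), against 6.97%. As given above, excitatory neurons were deeper in PZKO, and oligodendrocyte clusters were present in different proportions in the libraries. The part of either in these calls was not tested.

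Fewer of the genes could be read in the smaller classes. In OPC, *Gfap* was called lower (-1.15) and *S100b* was not, against 7.98% of all genes. In ependymal cells *Vim* was called lower (-0.87) of 4 genes, against 6.61%, and in endothelial cells *Aqp4* (-0.67) of 3, against 4.19%. In VLMC both genes that could be read, *Gfap* (-1.83) and *Vim* (-1.32), were called lower, against 9.59%, and in the choroid plexus *Gfap* (-0.75) was, against 7.31%. Mural cells went the other way for *Vim*, the only gene that could be read there: it was at 118.2 CPM from 45 UMIs in PS19 and at 181.1 CPM from 90 UMIs in PZKO, with a log2 ratio of 0.62 (0.08 to 1.16), in a class where 12.5% of genes were called higher and 10.1% lower.

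In excitatory neurons *Cd44* was the other exception, with 118 UMIs in PS19 (2.02 CPM, 1.67 to 2.41) and 461 UMIs in PZKO (4.88 CPM, 4.45 to 5.35), a log2 ratio of 1.28 (0.98 to 1.58), where 3.63% of all genes were called higher. Of the PZKO UMIs, 281 lay in 1 of the 10 excitatory clusters, led by *Cpa6* and *Tshz2*, which held 93 PS19 and 239 PZKO nuclei. In that cluster *Cd44* was at 15.7 CPM from 31 UMIs in PS19 (10.6 to 22.2) and at 34.6 CPM in PZKO (30.6 to 38.8). The cluster is thus larger in PZKO and also higher in *Cd44* per UMI, and excitatory clusters were present in different proportions in the 2 libraries.

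To find genes with a like distribution, log2(CPM + 1) of each gene was correlated over the 22 sums of 11 classes and 2 libraries, which share their libraries and the depth of each class. *Gfap* was most like *Aldoc* (r = 0.965), *Clu* (0.953) and *Atp1b2* (0.932), and *Aqp4* most like *Mlc1* (0.962), *Pla2g7* (0.962) and *Prdx6* (0.941). *Vim* was most like *Ifitm3* (0.939), *Gstm1* (0.936) and *Anxa2* (0.934), and *Serpina3n* like *Cmtm5* (0.9001), *C4b* (0.874) and *Aldoc* (0.863). *S100b* was most like *Gpr37l1* (0.927), *Kcnj10* (0.927) and *Kcnj16* (0.924), *Cxcl5* like *Thbs4* (0.910), *Ntsr2* (0.907) and *Cldn10* (0.90001), and *Cd44* like *Hacd2* (0.922), *Pla2g7* (0.883) and *4931406C07Rik* (0.877). The 3 genes most like the sparse *Lcn2* were *Cops9* (0.878), *Eif3f* (0.875) and *Pfdn6* (0.861), which are widely expressed. Among the 8 genes themselves, *Gfap* and *Aqp4* were most alike (0.930), and *Lcn2* and *Cd44* least (0.159).

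Lists of related genes place the 8 genes among others of astrocytes. Of 13 genes known as shared by several reactive states, 9 reached 100 UMIs and 3 were called lower (*Vim*, *Serpina3n* and *Cp*, which encodes ceruloplasmin at -0.55), with a median of -0.43. *Osmr* (-0.16), *Aspg* (-0.10) and *Cd44* (-0.10) were nearest to 0 in it. Without the 8 genes, its other 5 genes had a median of -0.23, with 1 called lower. Of 14 genes of the A1 type, 6 of 11 were called lower, with a median of -0.52. The complement component *C3* (-1.35, from 28.8 to 11.3 CPM), the antigen-presenting *H2-T23* (-0.89) and the complement inhibitor *Serping1* (-0.80) were lowest, and *Iigp1* (0.14), *Ggta1* (-0.11) and *Fbln5* (-0.30) were highest. Of 12 genes of the A2 type, 4 of 6 were called lower, with a median of -0.60. They were *Tm4sf1* (-1.66), *Clcf1* (-0.74), *S100a10* (-0.69) and *Tgm1* (-0.51), while *Cd109* was at -0.49 and *Emp1* at -0.16. With the stricter filter on nuclei 2 of the A2 genes and 4 of the A1 genes were called lower, with medians of -0.43 and -0.42, and 4 of the A1 genes were with TMM scaling or with free RNA subtracted. Of all genes, 8.89% were called lower, as given above.

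A list of genes of disease-associated astrocytes had the most calls, 12 of 15, with a median of -0.76, and 10 of its 11 genes outside the 8 were called lower. *Clu*, a chaperone of the extracellular space, was at 2194 CPM in PS19 and 1018 CPM in PZKO (-1.11), and *Cryab*, a small heat shock protein, had a log2 ratio of -1.26, while *Osmr*, *Aqp4* and *Gfap* were not called. Of 18 homeostatic astrocyte genes, 1 was called lower (*Atp1b2*, a subunit of the sodium pump, at -0.73) and 0 higher, with a median of 0.02. In this list *Slc1a2*, *Slc1a3*, *Gja1*, *Ndrg2*, *Gpc5*, *Fgfr3*, *Slc7a10* and *Aldh1l1* were also markers that named the astrocyte class. The list is therefore not independent of how the class was made, and it is no plain contrast to the reactive lists. Highest were *Mertk*, a receptor for engulfment (0.42), *Gpc5* (0.32) and *Luzp2* (0.29), and after *Atp1b2* the lowest were the gap junction gene *Gja1* (-0.47) and *Aldoc* (-0.44). Relative to genes of like length, the medians were -0.63 for the disease-associated list, -0.47 for A2, -0.33 for A1, -0.25 for the shared reactive list and 0.13 for the homeostatic list. With TMM scaling these 5 medians were -0.64, -0.48, -0.39, -0.30 and 0.14 in the same order.

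In each list of partners of the 8 genes, at most 1 gene was called lower and 0 were called higher. Of all genes tested in astrocytes, 8.89% were called lower, so these counts are not read as a result about the partners. The medians of the signalling, filament and *Cd44* lists turned from below 0 to 0.06, 0.03 and 0.02 with TMM scaling. Of 11 genes of interleukin-6 and STAT3 signalling, 1 was called lower, *Socs3*, a target and inhibitor of the pathway (-0.66), and the median was -0.06. The receptor subunits *Il6ra* (-0.30), *Osmr* (-0.16), *Lifr* (0.12) and *Cntfr* (0.15) and the kinase gene *Tyk2* (0.17) were not called. Of the 6 filament and linker genes tested, *Vim* alone was called lower, with *Synm* at -0.08, *Plec* at -0.08, *Dst* at -0.09 and *Macf1* at 0.23. The 11 genes of the complex that anchors *Aqp4* at the endfeet had a median of 0.10 and 0 calls, from *Mlc1* (-0.39), *Aqp4* itself and *Dag1* (-0.16) at the lower end to *Dtnb* (0.19), *Dtna* (0.19) and *Dmd* (0.24), which encodes dystrophin, at the upper end. Of 6 genes tested that make, bind or link to *Cd44*, besides *Cd44* itself, *Has2*, a hyaluronan synthase, was called lower (-0.65, from 55 and 48 UMIs, and not with the stricter filter), and *Msn* (-0.31), *Rdx* (-0.18), *Vcan* (0.01), *Ezr* (0.03) and *Ncan* (0.08) were not. Of 4 receptors for the secreted proteins, *Slc22a17*, a receptor of lipocalin-2, was the one that reached 100 UMIs, at -0.41. *Cxcr2*, the receptor of *Cxcl5*, had 2 UMIs in PS19 and 0 in PZKO astrocytes.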

How the data were processed

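snRNA-seq of pooled hippocampi gave 1 library per genotype. The authors deposited raw UMI counts per gene and nucleus, made with Cell Ranger on mm10. The study's methods and the submitters' processing notes give version 7.0.1, the matrix headers give 8.0.1. The SoupX, filter and DoubletFinder steps of the methods are not part of the deposited counts. Nuclei with fewer than 600 UMIs, fewer than 300 genes or over 5% mitochondrial UMIs were left out, and the top Scrublet scores (scanpy 1.11.5) were removed at 0.8% per 1000 nuclei. Log-normalized counts, 2000 variable genes, 30 principal components and 20 neighbours were clustered with leidenalg 0.10.2 at resolution 1. The 8 genes were kept out of the variable genes, as were the list genes that are not markers. Clusters were named by markers, and left unnamed below a score of 0.25 or a gap of 0.15, set after the clusters had been seen. They were also left unnamed with too few markers detected, if markers of another class led, or at low depth if no own marker led. These rules left 6.82% of PS19 and 6.94% of PZKO nuclei unnamed. CPM are sums over a class, scaled to 1000000 UMIs. Where 1 library had a count of 0, 3 counts were allowed.

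Named are the 8 genes, *Zbp1*, in each of 10 lists the 3 lowest and 3 highest ratios among genes with 100 UMIs (all if 6 or fewer), the 3 most like genes (at least 200 UMIs, classes of at least 50 nuclei), and the 10 genes that differ most by *Gfap* (at least 50 UMIs per library). The genes, lists and tests were chosen with earlier results of these data known. The intervals were tested on simulated Poisson counts, a test that does not cover UMIs bunched in few nuclei. Alternatives covered scaling (edgeR 4.0.16, DESeq2 1.42.0), free RNA, filters, doublets, clustering, thinning and gene length, the last added after the data had been seen.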

Additional observations from a re-analysis of the deposited data

Results flagged for a closer look

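Genes whose interval lay below 0 in 1 class or astrocyte cluster and above 0 in another stand out here, and the differences between classes were not tested. *Cd44* had a log2 ratio of PZKO over PS19 of 1.28 in excitatory neurons (118 and 461 UMIs in 74 and 136 nuclei) and of 0.17 in the astrocyte cluster led by *Gfap*, and of -0.85 in the astrocyte cluster led by *Gpc5*. In ependymal cells *Cd44* was at 0.65 (0.0046 to 1.31), from 36 and 51 UMIs, which stayed below the minimum for a call. *Vim* had a log2 ratio of 0.62 in pericytes or mural cells, from 45 and 90 UMIs in 24 and 28 nuclei, and of -1.32 in astrocytes. The share of mural nuclei with *Vim* was not higher in PZKO. Each of these values rests on 1 library per genotype.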

How the results depend on the processing

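Over 14 settings the log2 ratios in astrocytes ranged from -1.44 to -1.07 for *Vim*, -1.17 to -0.82 for *Serpina3n*, -1.52 to -0.93 for *Cxcl5*, -2.98 to -2.14 for *Lcn2*, -0.55 to -0.31 for *Gfap*, -0.78 to -0.24 for *S100b* and -0.33 to -0.16 for *Aqp4*. *Cd44* turned to 0.0239 with edgeR TMM scaling, to 0.0212 with DESeq2 size factors and to 0.10 with equal weights of the 2 astrocyte clusters. The number of the 8 genes called lower went from 3 to 5 with a mean over nuclei and to 5 with no filter on nuclei, and was 3 or 4 otherwise. TMM scaling moved the median of all genes from -0.06 to 0.06, the share of genes called lower from 8.89% to 5.10% (5.13% with DESeq2 size factors, 3.42% relative to genes of like length), and the share of lower calls among all calls from 81.3% to 53.7%. Lists with a median below 0 numbered 8, and 5 with TMM scaling. With at least 2 UMIs asked for, the difference in share of astrocytes turned to 0.227 percentage points for *S100b* and to 0.0248 for *Cd44*, both small and without an interval. The causes were not tested. The counts of genes with co-detection in both libraries (5) and highest in astrocytes (5) stayed the same, but the odds ratios moved, that of *Cd44* in PZKO between 4.84 and 9.001. No paired analysis was possible because each genotype has 1 library. Depth limits *Lcn2* most, with 12 UMIs in PZKO astrocytes.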

Other observations

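A cluster of 60 PS19 and 57 PZKO nuclei was left unnamed because markers of macrophages and of T cells scored alike in it. *Cd44*, which lymphocytes and macrophages also carry at their surface, was at 143.1 CPM there in PS19 (21 UMIs, 88.6 to 218.7) and at 243.6 CPM in PZKO (41 UMIs, 174.8 to 330.5), with overlapping intervals. *Lcn2* had 3 and 6 UMIs in these nuclei.

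A second unnamed cluster of 342 PS19 and 256 PZKO nuclei had a median of 813.5 UMIs and was led by genes of no single class. *Gfap* was at 726 CPM in PS19 (647.2 to 811.8) and 665.2 CPM in PZKO (571.5 to 769.8) in it, and *Vim* at 367.7 and 195.9 CPM, a log2 ratio of -0.91 (-1.39 to -0.45). *Aqp4* was higher in PZKO there, at 289.9 and 469.3 CPM, a log2 ratio of 0.69 (0.33 to 1.06).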
